A study of Mus musculus with 2 samples.

Results

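Genes for the machinery of nuclear RNA polymerases I, II and III were followed in transformed mouse bone marrow progenitors after the homeobox factor Hoxa9 was lost from the nucleus. The genes were taken by name from the deposited table: every Polr1, Polr2 or Polr3 gene with a single-letter ending, Gtf3c1 to Gtf3c6, and Ubtf, Rrn3, Taf1a, Taf1b, Taf1c, Taf1d, Brf1, Brf2 and Bdp1. This gave 42 genes of 23235 rows, and 41 of them had FPKM values above 0 (fragments scaled to transcript length and to the number of mapped fragments) and were tested by the authors. The set was proposed with the comparison of EtOH and 4OHT in view, so its values and counts in that comparison are a description. The cells were lineage-depleted C57B6 marrow that had received 2 MIGR1 retroviruses, HA-Hoxa9-ER and Flag-Meis1, and both conditions carried both. ER stands for an estrogen receptor domain that holds its partner out of the nucleus unless 4OHT (4-hydroxytamoxifen) is bound. In the EtOH condition the transformed cells were washed free of 4OHT and grown for 72 h in ethanol, the vehicle, which removes Hoxa9-ER from the nucleus. In the 4OHT condition they were washed and grown for 72 h with 100 nM 4OHT again, and both cultures had been transformed in IL3 and 4OHT.

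Each condition was 1 sample made of 2 replicates and gave 1 FPKM value per gene, so FPKM values below carry no replicate error of their own. Nothing in the labels says whether the replicates were separate cultures. The error of a difference is given as the standard error (SE) that the authors' deposited p-value implies for log2(FPKM EtOH/FPKM 4OHT), called the log2 ratio here, and it rests on the authors' model of the spread. "Fell" and "rose" are used of genes whose q in the authors' deposited table was 0.05 or less. A median over a list uses the log2 change, log2((FPKM EtOH + 1)/(FPKM 4OHT + 1)), which understates differences of low genes. Over all 11865 tested rows 22.5% passed that threshold, 10.5% of rows lower and 12.0% higher in EtOH. FPKM summed to 591496 in EtOH and 544802 in 4OHT. These sums do not give depth, which is unknown, and they include the marker genes that follow. The 5 markers of the labelled progenitors summed to 369 FPKM in EtOH and 400.2 FPKM in 4OHT. Among them Cd34 fell, at 45.8 FPKM in EtOH and 124 FPKM in 4OHT. Gata2 rose, at 122 FPKM in EtOH and 71.1 FPKM in 4OHT. Ptprc rose too, at 64.5 FPKM in EtOH and 33.9 FPKM in 4OHT. Kit (10.1 FPKM in EtOH and 7.39 FPKM in 4OHT) and Myb (127 FPKM in EtOH and 164 FPKM in 4OHT) did not pass. The 5 neutrophil markers summed to 16008 FPKM in EtOH and 51.3 FPKM in 4OHT, and the 3 eosinophil markers to 4667 FPKM in EtOH and 126 FPKM in 4OHT. The 4 basophil and mast cell markers, all of which rose, summed to 3202 FPKM in EtOH and 712 FPKM in 4OHT. Of the 4 macrophage markers Emr1 fell, at 102 FPKM in EtOH and 202 FPKM in 4OHT, while Csf1r (2.10 FPKM in EtOH and 0.347 FPKM in 4OHT) and Mrc1 (1.92 FPKM in EtOH and 0.0839 FPKM in 4OHT) rose, and C1qa was at 0.221 FPKM in EtOH and 0.0216 FPKM in 4OHT. Markers of T, NK and B cells lay at or under 0.162 FPKM in EtOH and 0.0338 FPKM in 4OHT. The part of these marker differences in the results below was not tested, and in such bulk samples fewer cells of a type and less RNA per cell cannot be told apart.

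RNA polymerase I (Pol I) makes the precursor of the large ribosomal RNAs in the nucleolus, Pol II makes messenger RNAs, and Pol III makes transfer RNAs, 5S ribosomal RNA and other short RNAs. Each enzyme has its own large catalytic subunits, a few small subunits are shared between the enzymes, and each relies on its own factors to find a promoter. Pol I and Pol III output is known to follow growth and is known as a target of Myc. Myeloid progenitors that stop dividing and mature are known to make fewer ribosomes.

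The promoters of 4 of the 5 members that passed the threshold of the authors' test are shown. For the other, Polr3d, no window was found. The promoters are RefSeq windows of GRCm38.p6, 5′ to 3′, with 250 bases before and 50 after the start of the gene. Capitals mark CACGTG (the E-box read by Myc and its relatives), GGGCGG (the GC box) and GGTTCGA (the core of the B box, the internal tRNA gene element that TFIIIC binds), each searched on both strands.
Rrn3 promoter, chr16:13780449-13780748, + strand: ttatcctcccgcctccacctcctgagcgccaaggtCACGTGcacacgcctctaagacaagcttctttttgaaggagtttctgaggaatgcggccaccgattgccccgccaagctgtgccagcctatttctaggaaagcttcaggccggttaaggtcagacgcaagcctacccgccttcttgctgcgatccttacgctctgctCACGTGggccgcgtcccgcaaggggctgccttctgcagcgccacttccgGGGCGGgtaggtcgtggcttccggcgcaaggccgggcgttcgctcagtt
Polr1b promoter, chr2:129100746-129101045, + strand: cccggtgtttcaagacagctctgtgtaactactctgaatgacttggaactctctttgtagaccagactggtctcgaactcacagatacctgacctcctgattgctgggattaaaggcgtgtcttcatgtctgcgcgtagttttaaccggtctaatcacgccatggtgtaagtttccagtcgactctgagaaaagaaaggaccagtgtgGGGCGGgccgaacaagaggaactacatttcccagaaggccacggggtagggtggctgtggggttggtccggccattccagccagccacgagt
Polr2i promoter, chr7:30231824-30232123, + strand: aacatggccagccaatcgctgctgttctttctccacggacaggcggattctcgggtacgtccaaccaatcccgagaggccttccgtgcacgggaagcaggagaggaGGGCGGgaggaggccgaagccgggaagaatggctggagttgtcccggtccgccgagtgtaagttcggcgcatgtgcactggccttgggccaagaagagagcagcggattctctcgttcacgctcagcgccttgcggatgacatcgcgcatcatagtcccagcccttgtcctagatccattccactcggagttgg
Polr3e promoter, chr7:120917528-120917827, + strand: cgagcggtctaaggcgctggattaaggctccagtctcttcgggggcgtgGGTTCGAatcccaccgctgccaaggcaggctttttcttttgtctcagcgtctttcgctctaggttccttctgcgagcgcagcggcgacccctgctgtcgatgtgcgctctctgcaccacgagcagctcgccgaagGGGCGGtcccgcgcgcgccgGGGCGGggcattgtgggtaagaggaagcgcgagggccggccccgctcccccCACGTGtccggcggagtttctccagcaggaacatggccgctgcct

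The 4 windows differed in these letters. Counted from 0 at the start of the gene, Rrn3 had E-boxes at -215 and -48 and a GC box at 1. Polr3e had an E-box at 5 and GC boxes at -66 and -46. Polr1b had a GC box at -42 and Polr2i at -144, and neither had an E-box in these 300 bases. Windows were found for 34 of the 42 genes, 44 windows in all, since some genes have several. An E-box stood in 13.6% of the members' windows, against 10.2% of 10696 windows of tested genes and 7.15% of all 32851 windows. A GC box stood in 63.6% of the members' windows, against 62.0% for tested genes and 35.7% for all. TGATTTAT, a joint Hox and Pbx motif, stood in no member window, against 0.374% for tested genes and 0.977% for all, and TGACAG, the Meis motif, in 13.6%, against 17.1% and 19.2%. CCAAT stood in 29.5% of members' windows, against 38.2% for tested genes and 37.4% for all, and TATAAA in 6.82%, against 7.10% and 13.6%. None of the motifs contains another on either strand, and a match shows letters, not binding.

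The Polr3e window held a B box core at -201. The core stood in 2 of the 44 member windows, or 4.55%, the other being one of Taf1d, against 1.33% for tested genes and 0.910% for all. In the RefSeq gene table (GRCm38.p6) n-TLaag4, a leucine tRNA gene, ends 179 bases before Polr3e begins. The core at -201 therefore lies inside this tRNA gene, and the share of member windows above counts it all the same. Of 10010 tested protein-coding genes, 38, or 0.380%, had a tRNA gene within 1000 bases. Transfer RNA genes are read by Pol III, the enzyme to which Polr3e belongs.

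Levels were lower in EtOH for most of the machinery, by small amounts. Of the 41 genes 37 had a lower FPKM in EtOH and 4 a higher one, where 56.7% of all tested rows were lower and 43.3% higher. The members fell in 5 cases, 12.2% of those tested, and none rose, beside the 10.5% and 12.0% over all tested rows. The 5 were Polr2i, Polr1b, Rrn3, Polr3d and Polr3e. The median log2 change of the members was -0.23, with quartiles of -0.36 and -0.11, against -0.05 over all tested rows. The FPKM ratio of EtOH over 4OHT ran between 0.559 and 1.04, with a median of 0.846, and 28 of the 41 genes had a ratio between 0.8 and 1.25. For 37 of the 41 the 95% interval of the log2 ratio lay within a 2-fold change either way. Tested rows of at least 1 FPKM in either condition had log2 change quartiles of -0.25 and 0.18 and a median SE of 0.19. How many of those rows met the same bands was not counted. Scaling EtOH down to the summed FPKM of 4OHT shifted the median of all rows of at least 1 FPKM by -0.10. It put all 41 members lower, and scaling to a median ratio of 1 put 35 lower. The summed FPKM includes the neutrophil markers, at 16008 FPKM in EtOH and 51.3 FPKM in 4OHT. The members' median lay below that of all tested rows by 0.18 as deposited, 0.20 with the first scaling and 0.17 with the other, and the 5 genes that fell were lower in EtOH under all of these.

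**Figure D1:**
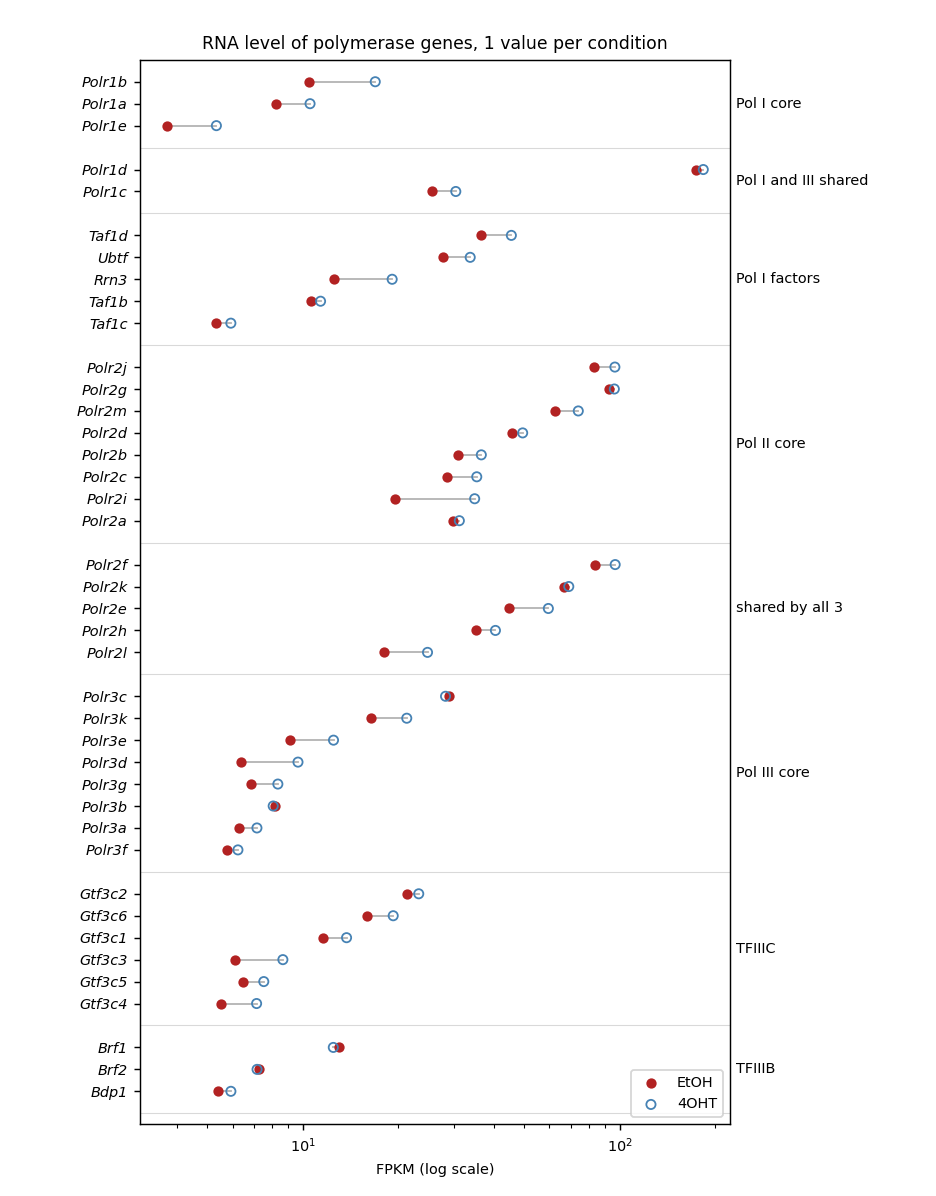
FPKM of 40 measured genes in EtOH (filled red) and 4OHT (open blue) on a log axis, 1 value per condition, grouped by enzyme and sorted by the 4OHT value. The levels run between 3.73 and 174 FPKM in EtOH and between 5.34 and 184 FPKM in 4OHT, and 36 red points lie left of their blue partner.

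Of the subunits that belong to Pol I alone, 3 carry a Polr1 name in the table, and these were all lower in EtOH and 1 fell, with a median log2 change of -0.42. Znrd1, Cd3eap and Twistnb, subunits of Pol I under other names, are given with the further lists. Polr1b, the second largest subunit, which forms the active site with Polr1a, was at 10.4 FPKM in EtOH and 16.9 FPKM in 4OHT. It fell, with a log2 ratio of -0.70 and an SE of 0.17, and had a q of 0.000235 in the authors' deposited table. Polr1b lies on chromosome 2 at 128926732 to 128952331 (mm9). Polr1a, the largest catalytic subunit, was at 8.22 FPKM in EtOH and 10.5 FPKM in 4OHT. Its log2 ratio of -0.36 (SE 0.16) had a q of 0.0920 in the authors' deposited table. Polr1e, which belongs to a subunit pair related to the Pol II factor TFIIF, had the lowest level of all measured members, 3.73 FPKM in EtOH and 5.34 FPKM in 4OHT. Its log2 ratio of -0.52 (SE 0.23) had a q of 0.0866 in the authors' deposited table, so all 3 differences exceeded 2 SE but only that of Polr1b passed.

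Of the Pol I promoter factors, Rrn3 fell and the other 4 measured ones were lower without passing. Rrn3 (TIF-IA), which joins Pol I to the promoter and is known as a growth-controlled step, was at 12.6 FPKM in EtOH and 19.1 FPKM in 4OHT. Its log2 ratio was -0.61 (SE 0.16), with a q of 0.00170 in the authors' deposited table, and it lies on chromosome 16 at 13780792 to 13814934 (mm9). Ubtf, which coats the ribosomal DNA, was at 27.7 FPKM in EtOH and 33.7 FPKM in 4OHT, a log2 ratio of -0.29 (SE 0.15). The other factors belong to SL1, the complex of TBP with Taf1a to Taf1d that selects the Pol I promoter. Taf1d was at 36.6 FPKM in EtOH and 45.5 FPKM in 4OHT (log2 ratio -0.31, SE 0.24). Taf1b was at 10.7 FPKM in EtOH and 11.4 FPKM in 4OHT, and Taf1c at 5.33 FPKM in EtOH and 5.93 FPKM in 4OHT, both within 1 SE of no difference. Taf1a was listed at 0 in both conditions and not tested, and the table places it on the unplaced contig chr1_random. The median log2 change of the 8 measured Pol I members, core and factors, was -0.31.

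Taf1d is also a host of small nucleolar RNAs, with 6 snoRNA genes inside it in the RefSeq table, the only one of 10010 tested protein-coding genes with at least 6. The deposited table gives Taf1d the same locus as 3 other rows. Of these, 4931406C07Rik had 7.70 FPKM in EtOH and 12.1 FPKM in 4OHT, with a q of 0.00203 in the authors' deposited table. 11.5% of the 50-base words of Taf1d also occur in transcripts of other genes, so its own level is uncertain.

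Polr1c and Polr1d, which form the assembly platform of both Pol I and Pol III, differed little. Polr1d had the highest level of all members, 174 FPKM in EtOH and 184 FPKM in 4OHT, though 20.8% of its words are shared with other genes. Its partner Polr1c was at 25.6 FPKM in EtOH and 30.4 FPKM in 4OHT (log2 ratio -0.25, SE 0.18). Polr1d thus stood at 6.80 times the level of Polr1c in EtOH and 6.04 times in 4OHT, although the proteins pair with each other.

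All 8 Pol II genes outside the shared subunits were lower in EtOH, and 1 of them fell, with a median log2 change of -0.23. Polr2i (RPB9), a small zinc-binding subunit known from yeast for accurate RNA synthesis, was at 19.5 FPKM in EtOH and 34.9 FPKM in 4OHT. Its log2 ratio of -0.84 (SE 0.23) was the most negative of the 41 genes, with a q of 0.00191 in the authors' deposited table, and 3.32% of tested rows had a change as low or lower. It lies on chromosome 7 at 31017093 to 31018406 (mm9). In EtOH it was the least abundant of these 8 genes, and in 4OHT only Polr2a was lower.

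The large Pol II subunits did not pass the threshold. Polr2a (RPB1), whose carboxy-terminal repeat domain gathers RNA processing factors, was at 29.7 FPKM in EtOH and 31.2 FPKM in 4OHT. Its log2 ratio of -0.07 (SE 0.14) had a 95% interval of -0.35 to 0.21. Polr2b (RPB2), which completes the active site, was at 30.9 FPKM in EtOH and 36.6 FPKM in 4OHT (log2 ratio -0.24, SE 0.18). The locus of Polr2b in the table is also that of Igfbp7, at 72.1 FPKM in EtOH and 50.4 FPKM in 4OHT, so reads may be split between them. Polr2a was at 0.960 times the level of Polr2b in EtOH and 0.852 times in 4OHT.

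The remaining Pol II genes were within 2 SE of no difference. Polr2c (RPB3) and Polr2j (RPB11) form the assembly platform. Polr2c was at 28.6 FPKM in EtOH and 35.4 FPKM in 4OHT (log2 ratio -0.31, SE 0.17), and 24.3% of its words are shared with other genes. Polr2j was at 82.9 FPKM in EtOH and 96.5 FPKM in 4OHT (log2 ratio -0.22, SE 0.17). Polr2d (RPB4) and Polr2g (RPB7) make up the stalk. Polr2d was at 45.7 FPKM in EtOH and 49.4 FPKM in 4OHT, and Polr2g at 92.2 FPKM in EtOH and 96.2 FPKM in 4OHT, each within 1 SE. Polr2g and Polr2k were the members whose log2 change turned positive when EtOH was scaled to a median ratio of 1. Polr2m (Gdown1), which binds Pol II and hinders initiation, was at 62.7 FPKM in EtOH and 74.0 FPKM in 4OHT (log2 ratio -0.24, SE 0.15).

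The 5 subunits common to the 3 enzymes were all lower in EtOH and none fell, with a median log2 change of -0.21. Polr2l (RPB10) was at 18.1 FPKM in EtOH and 24.7 FPKM in 4OHT, a log2 ratio of -0.45 (SE 0.18), with a q of 0.0560 in the authors' deposited table. Polr2e (RPB5), a contact to DNA ahead of the active site, was at 44.6 FPKM in EtOH and 59.5 FPKM in 4OHT, a log2 ratio of -0.42 (SE 0.17), with a q of 0.0552 in the authors' deposited table. Both lay just outside the threshold. Polr2f (RPB6) was at 83.6 FPKM in EtOH and 96.7 FPKM in 4OHT (log2 ratio -0.21, SE 0.18). Polr2h (RPB8) was at 35.1 FPKM in EtOH and 40.5 FPKM in 4OHT (log2 ratio -0.21, SE 0.19). Polr2k (RPB12) was at 66.6 FPKM in EtOH and 69.1 FPKM in 4OHT, with a difference well inside its SE of 0.24. Shared words made up 25.8% of Polr2k, 21.5% of Polr2l and 13.9% of Polr2h, so the levels of these short genes are uncertain.

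**Figure D2:**
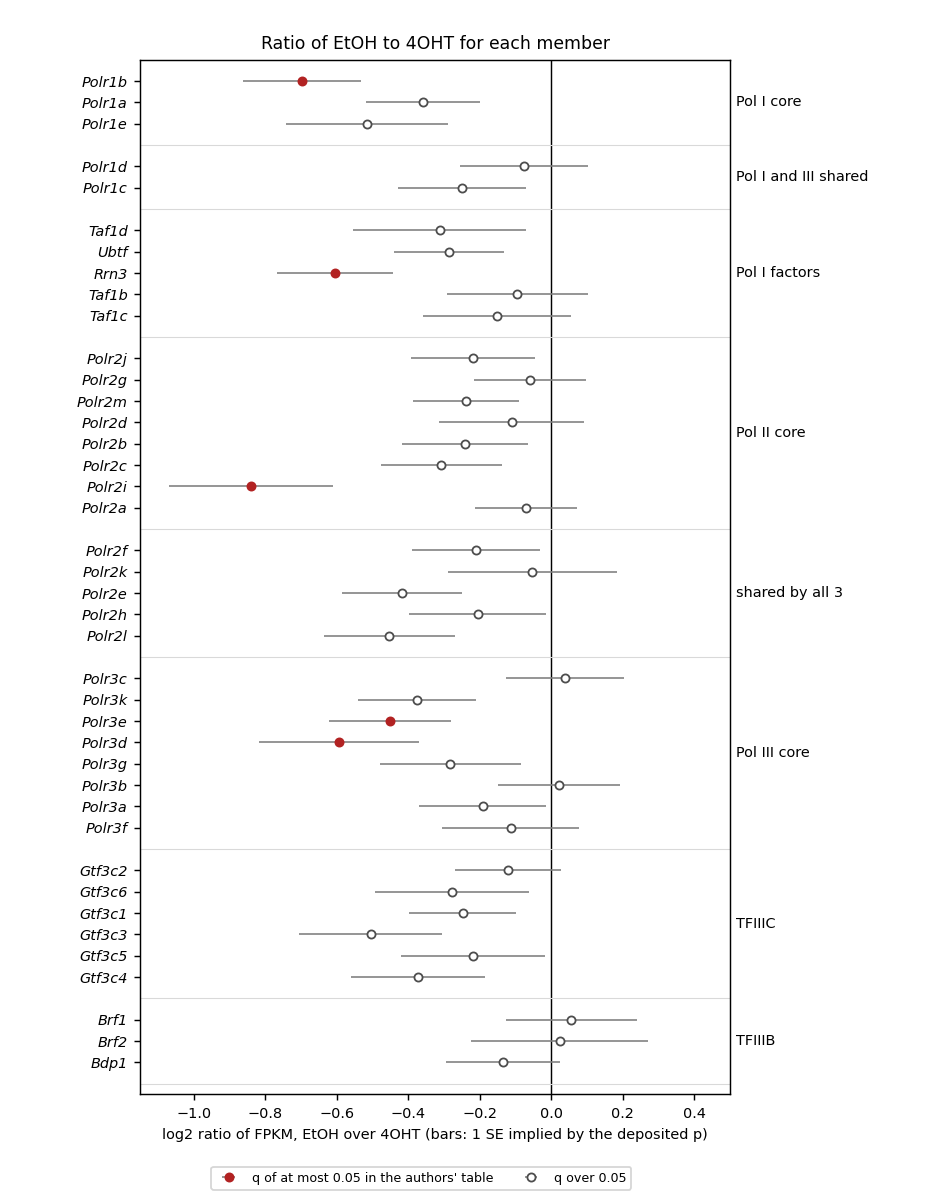
Log2 ratio of FPKM in EtOH over 4OHT for 40 genes, with bars of 1 SE implied by the deposited p-value; filled red points passed q of 0.05 in the authors' deposited table. The 5 red points run between -0.84 for Polr2i and -0.45 for Polr3e, and Brf2 has the widest bar, an SE of 0.25.

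In Pol III the members that fell were Polr3d and Polr3e, which are partners: in yeast their counterparts form a dimer that acts in initiation and termination. Polr3d was at 6.40 FPKM in EtOH and 9.66 FPKM in 4OHT, a log2 ratio of -0.59 (SE 0.22), with a q of 0.0380 in the authors' deposited table. Polr3e was at 9.14 FPKM in EtOH and 12.5 FPKM in 4OHT, a log2 ratio of -0.45 (SE 0.17), with a q of 0.0377 in the authors' deposited table. Both lay just inside the threshold. Polr3d is on chromosome 14 at 70838555 to 70843278 and Polr3e on chromosome 7 at 128061258 to 128090946 (mm9). The microRNA gene Mir320 lies 38 bases from Polr3d and was listed at 0 in both conditions.

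The catalytic pair of Pol III did not fall. Polr3a, the largest subunit, was at 6.27 FPKM in EtOH and 7.16 FPKM in 4OHT (log2 ratio -0.19, SE 0.18). Polr3b, the second largest, was at 8.19 FPKM in EtOH and 8.06 FPKM in 4OHT, a log2 ratio of 0.02 (SE 0.17) and a 95% interval of -0.31 to 0.36. Polr3a stood at 0.766 times the level of Polr3b in EtOH and 0.889 times in 4OHT. Polr3k, the Pol III relative of Polr2i, whose yeast counterpart is needed for RNA cleavage and termination, was at 16.4 FPKM in EtOH and 21.3 FPKM in 4OHT. Its log2 ratio of -0.38 (SE 0.17) had a q of 0.0867 in the authors' deposited table.

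Polr3c, Polr3f and Polr3g form the arm of Pol III that opens promoters. Polr3c was the most abundant of the subunits in Pol III alone, at 29.0 FPKM in EtOH and 28.2 FPKM in 4OHT (log2 ratio 0.04, SE 0.16). Polr3f was at 5.77 FPKM in EtOH and 6.24 FPKM in 4OHT, and Polr3g at 6.86 FPKM in EtOH and 8.34 FPKM in 4OHT (log2 ratios of -0.11 and -0.28, SE 0.19 and 0.20). Polr3gl, the widely expressed paralogue that can take the place of Polr3g, was at 19.3 FPKM in EtOH and 18.8 FPKM in 4OHT. The level of Polr3g was 0.354 times that of Polr3gl in EtOH and 0.443 times in 4OHT. The difference between the paralogues was not tested, and the SE of each is about 0.2. Over the 9 members with a Polr3 name 7 were lower in EtOH and 2 higher, with a median log2 change of -0.25. Polr3gl and Crcp, from the list of other Pol III genes, are not among them. Crcp was at 19.3 FPKM in EtOH and 18.9 FPKM in 4OHT and did not pass.

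TFIIIC, which recognises the internal promoters of tRNA genes, had all 6 subunits lower in EtOH and none that fell, with a median log2 change of -0.25. Gtf3c3 came nearest, at 6.09 FPKM in EtOH and 8.65 FPKM in 4OHT, a log2 ratio of -0.51 (SE 0.20), with a q of 0.0504 in the authors' deposited table, just outside the threshold. Gtf3c4 was at 5.51 FPKM in EtOH and 7.15 FPKM in 4OHT (log2 ratio -0.37, SE 0.19). Gtf3c5, on chromosome 2 like Gtf3c4, was at 6.47 FPKM in EtOH and 7.53 FPKM in 4OHT (log2 ratio -0.22, SE 0.20). Gtf3c1, the large subunit that contacts the B box, was at 11.6 FPKM in EtOH and 13.7 FPKM in 4OHT (log2 ratio -0.25, SE 0.15). Gtf3c6 was at 15.9 FPKM in EtOH and 19.3 FPKM in 4OHT (log2 ratio -0.28, SE 0.22). Gtf3c2 was the most abundant, at 21.3 FPKM in EtOH and 23.2 FPKM in 4OHT (log2 ratio -0.12, SE 0.15). Shared words made up 50.8% of Gtf3c2 and 13.3% of Gtf3c3, so their levels are uncertain.

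TFIIIB, which TFIIIC brings to the start site and which recruits Pol III, has 3 members here, at nearly the same level in both conditions. Tbp, also a part of TFIIIB but in the list of other Pol III genes, was lower in EtOH without passing. It was at 17.7 FPKM in EtOH and 21.8 FPKM in 4OHT (log2 ratio -0.30, SE 0.18). Brf1, used at tRNA genes, was at 13.0 FPKM in EtOH and 12.5 FPKM in 4OHT (log2 ratio 0.06, SE 0.18), and its locus in the table is shared with Btbd6, at 3.74 FPKM in EtOH and 3.55 FPKM in 4OHT. Brf2, used instead at promoters such as that of U6 RNA, was at 7.29 FPKM in EtOH and 7.17 FPKM in 4OHT (log2 ratio 0.02, SE 0.25). Bdp1, needed at all Pol III promoters, was at 5.40 FPKM in EtOH and 5.93 FPKM in 4OHT (log2 ratio -0.14, SE 0.16). The 95% intervals of Brf1, Brf2 and Bdp1 ran between -0.46 and 0.51, so for these changes of up to 1.42-fold could not be told from none. Their median log2 change of 0.02 turned to -0.084 once EtOH was scaled down to the 4OHT sum and to -0.047 without Brf1. Brf1, Brf2, Polr3b and Polr3c were the members with a higher value in EtOH as deposited, and all 4 were lower with that scaling.

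**Figure D3:**
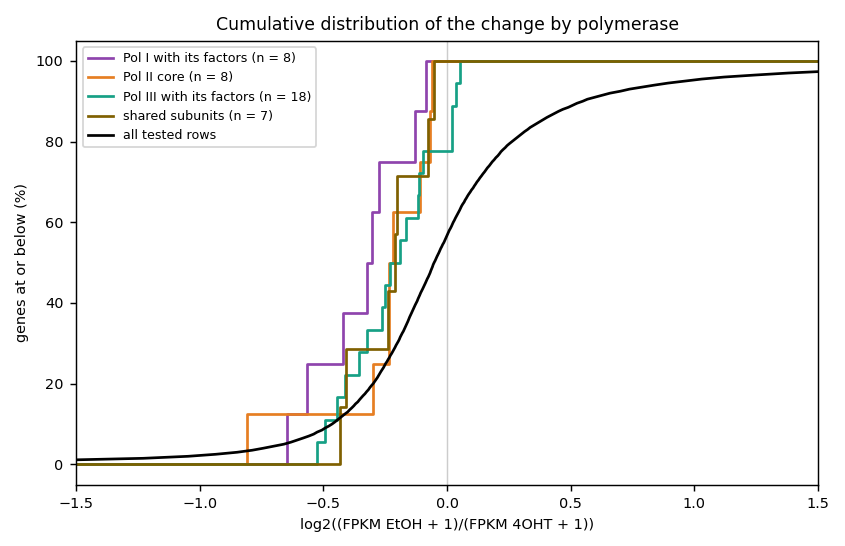
Cumulative share of genes (vertical axis, %) by log2((FPKM EtOH + 1)/(FPKM 4OHT + 1)) for 8 Pol I genes, 8 Pol II genes, 18 Pol III genes, 7 shared subunits and all tested rows (black). The medians are -0.31 for Pol I and -0.21 for Pol III, each with its factors, against -0.05 for all tested rows. That of the Pol II core, which counts Polr2m but no other factors, is -0.23. Genes outside the naming rule are not drawn, such as the 5 other Pol I genes, with a median of 0.047 as deposited.

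Over the members alone, summed FPKM of the Pol I core and factors was 115 in EtOH and 148 in 4OHT, a ratio of 0.776. This leaves out the 5 other Pol I genes, among them the subunits Znrd1, Cd3eap and Twistnb. These 5 summed to 90.7 FPKM in EtOH and 90.2 FPKM in 4OHT, so the Pol I ratio depends on which genes the naming rule took. For the Pol II core, counted with Polr2m, the sums were 392 in EtOH and 454 in 4OHT, a ratio of 0.864. For Pol III with TFIIIC and TFIIIB they were 190.2 in EtOH and 221 in 4OHT, a ratio of 0.862. The 10 other Pol III genes, left out likewise, summed to 173 FPKM in EtOH and 179 FPKM in 4OHT. The median log2 changes of the Pol I, Pol II and Pol III members differed by 0.10 at most. That of the 5 other Pol I genes was 0.047 as deposited. No test between the enzymes was made, since their genes are not replicates.

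Levels within an enzyme were far from equal. Within the Pol II core the highest was 4.74 times the lowest in EtOH and 3.10 times in 4OHT. Within the Pol III core the spans were 5.02-fold in EtOH and 4.52-fold in 4OHT. Over the 3 Pol I subunits with a Polr1 name they were 2.79-fold in EtOH and 3.17-fold in 4OHT. These Pol I spans leave out Znrd1, which at 35.6 FPKM in EtOH and 34.4 FPKM in 4OHT lay above all 3, so the full Pol I span is wider. Spearman's rho between the 41 levels in EtOH and those in 4OHT was 0.98, across genes that share their libraries. Among genes not shared between enzymes, those of Pol II had the highest median, 38.3 FPKM in EtOH and 43.0 FPKM in 4OHT, and the Pol III core had a median of 8.19 FPKM in EtOH and 9.66 FPKM in 4OHT.

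Short genes tended to be the abundant ones. The 16 measured members with a coding length under 1000 bases had a median of 35.9 FPKM in EtOH and 43.0 FPKM in 4OHT. The 15 with 2000 bases or more had a median of 9.14 FPKM in EtOH and 12.5 FPKM in 4OHT. Spearman's rho between coding length and FPKM over the 41 members was -0.51 in EtOH and -0.54 in 4OHT, and over the 13 Polr2 genes -0.13 in EtOH and -0.17 in 4OHT. The points share their libraries, and FPKM of short transcripts depends on how fragment length was handled. The log2 change did not follow this split, with medians of -0.23 in both classes.

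**Figure D4:**
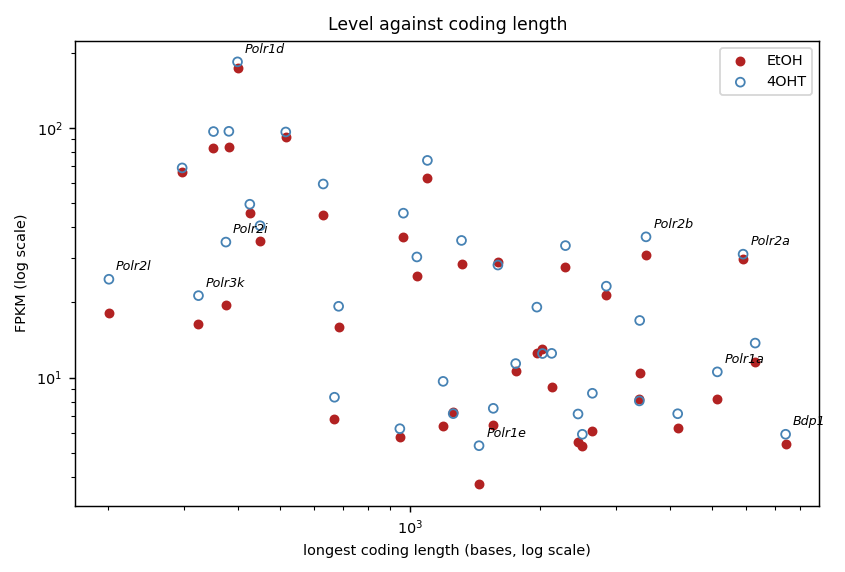
FPKM (log scale) against the longest coding length in GENCODE M21 (bases, log scale) for 40 measured genes, in EtOH (filled red) and 4OHT (open blue). Polr1d, with 399 coding bases, stands highest at 174 FPKM in EtOH and 184 FPKM in 4OHT, and Bdp1, with 7413, lies at 5.40 FPKM in EtOH and 5.93 FPKM in 4OHT.

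The remaining genes of Pol I and Pol III were taken as whole lists. Beside their counts stand the 10.5% of all tested rows called lower and the 12.0% called higher in EtOH. Of 5 other Pol I genes none passed, 2 were lower and 3 higher in EtOH, with a median log2 change of 0.047, which turned to -0.068 once EtOH was scaled down to the 4OHT sum. They include the other Pol I subunits, named for their place in the enzyme: Znrd1, the Pol I relative of Polr2i, was at 35.6 FPKM in EtOH and 34.4 FPKM in 4OHT, and Cd3eap, the partner of Polr1e, at 15.5 FPKM in EtOH and 15.8 FPKM in 4OHT. Twistnb, a stalk subunit, was at 15.1 FPKM in EtOH and 17.5 FPKM in 4OHT. Of 10 other Pol III genes 1 fell and 9 did not pass, with a median of -0.04. The one that fell was Gtf3a (TFIIIA), the factor for 5S RNA genes, at 16.1 FPKM in EtOH and 25.7 FPKM in 4OHT, a log2 ratio of -0.68 (SE 0.24), with a q of 0.0279 in the authors' deposited table. Maf1, a repressor of Pol III, was at 44.6 FPKM in EtOH and 41.5 FPKM in 4OHT (log2 ratio 0.10, SE 0.19).

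For the lists of the wider Pol II machinery and those after them the background is the same, 10.5% of all tested rows lower and 12.0% higher. Of 17 general initiation factors none passed, 14 were lower and 3 higher in EtOH, and the median log2 change was -0.17. Of 13 TFIID TAFs 1 rose and 1 fell, with a median of 0.021, which turned to -0.085 with that scaling. Taf9 fell, at 118 FPKM in EtOH and 228 FPKM in 4OHT, a log2 ratio of -0.95 (SE 0.18), with a q of 1.32e-06 in the authors' deposited table. Taf7 rose, at 6.39 FPKM in EtOH and 3.91 FPKM in 4OHT, with a q of 0.0106 in the authors' deposited table. Of 33 Mediator genes, for the complex that joins activators to Pol II, 2 rose and none fell, with a median of -0.08. Med21 rose, at 102 FPKM in EtOH and 54.5 FPKM in 4OHT (log2 ratio 0.91, SE 0.17), and Med13l rose, at 7.77 FPKM in EtOH and 5.09 FPKM in 4OHT.

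Of 22 tested elongation factor genes 1 rose and 1 fell, with a median log2 change of -0.05. Aff4, a scaffold of the super elongation complex, rose, at 21.3 FPKM in EtOH and 10.9 FPKM in 4OHT, a log2 ratio of 0.97 (SE 0.15), with a q of 8.61e-10 in the authors' deposited table. Ssrp1, of the histone chaperone FACT, fell, at 102 FPKM in EtOH and 150.2 FPKM in 4OHT (log2 ratio -0.55, SE 0.16). Among 10 genes of polymerase assembly and phosphatases of the Polr2a tail 1 rose and none fell, with a median of -0.20. It was Ssu72, named after its values were seen, at 64.2 FPKM in EtOH and 47.0 FPKM in 4OHT. Of 9 genes of mitochondrial transcription none passed, with a median of -0.16. Their polymerase Polrmt was at 5.55 FPKM in EtOH and 7.57 FPKM in 4OHT, with a q of 0.0779 in the authors' deposited table.

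**Figure D5:**
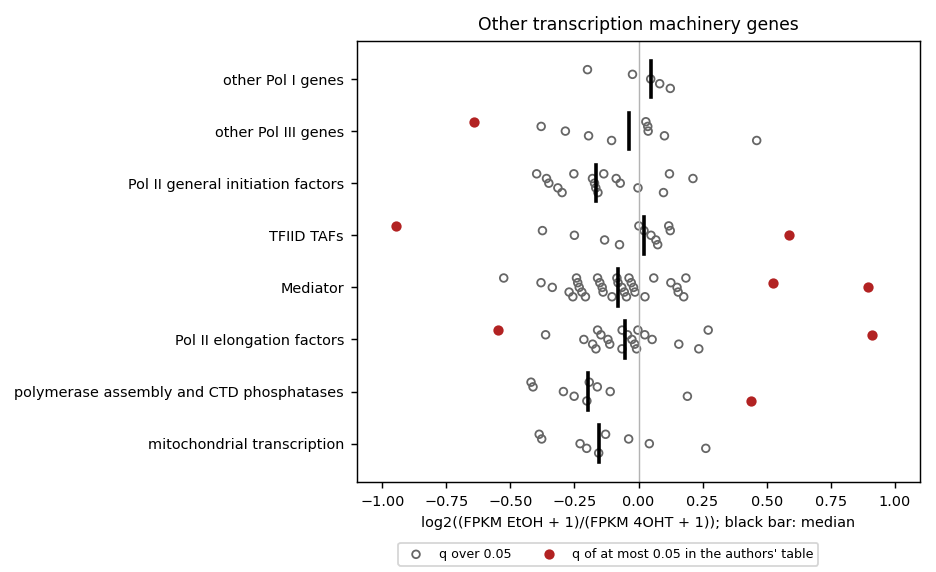
Log2((FPKM EtOH + 1)/(FPKM 4OHT + 1)) of single genes (circles) in 8 lists of other transcription machinery, with the list median as a black bar and red for genes that passed the q threshold of 0.05. As deposited, medians run between -0.20 and 0.05, with those above 0 turning negative when EtOH is scaled down to the 4OHT sum, and the 8 red points are Gtf3a, Taf9, Taf7, Med21, Med13l, Aff4, Ssrp1 and Ssu72.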

How the data were processed

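RNA was sequenced from TruSeq libraries, per the labels' protocols. The submitters' processing notes name mm9, Cuffdiff 2.0.2, CASAVA 1.8.2 and Bowtie2 2.0.0.7. For the annotation, the strand setting and library scaling, the sources used here give nothing. The authors deposited 1 FPKM value per gene and condition, p-values and q-values of their Cuffdiff test, and a test statistic, a score whose two-sided normal p equalled the deposited p-value within 1% in 100.0% of 11223 tested rows (p over 1e-10). The SE of a log2 ratio was therefore taken as its size over the normal quantile of p. With 1 value per condition no test beyond the authors' was made.

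Computed from FPKM were ratios, log2 changes with a pseudocount of 1 (lists used rows of at least 1 FPKM in either condition), and counts at q of at most 0.05. Locus starts were taken as counting from 0 and are printed from 1. Shared 50-base words and coding lengths came from GENCODE M21. Promoters, names and places of tRNA and snoRNA genes came from RefSeq (GRCm38.p6), which was not mixed with mm9 positions. Distances to the other neighbouring genes came from the deposited loci, taken as mm9. All members are named but 1, which is in the counts and medians and is not reported here by itself or drawn by name; of other lists, called genes with a log2 change of at least 0.5 in size, at most 4 a list. Outside that rule, Znrd1, Cd3eap, Twistnb, Polr3gl, Maf1 and Polrmt were named for their roles. Ssu72, Crcp, Tbp and the cell markers beside the results were named after their values were seen. Members and lists were chosen with earlier results of these data known. Scripts used Python 3.11.15, pandas 2.3.3 and scipy 1.17.1 and were tested on simulated data.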

Additional observations from a re-analysis of the deposited data

How the results depend on the processing

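Medians were recomputed with pseudocounts of 0.1 and 5, other filters, both scalings and without the 4 members that overlap another measured row. The median of all members stayed between -0.35 and -0.17. Among group medians, that of the Pol I core moved to -0.24 with a pseudocount of 5, because its genes are low, and that of TFIIIB, 0.020, turned to -0.047 without Brf1. Scaling EtOH down to the 4OHT sum shifted 19 medians by between -0.117 and -0.093, close to the shift of all genes. With it the medians of TFIIIB, other Pol I genes and TFIID TAFs turned to -0.084, -0.068 and -0.085, and those of Mediator and elongation factors, -0.080 and -0.053, became -0.190 and -0.167. Scaling to a median ratio of 1 shifted 11 medians by 0.052 to 0.065. The count of members that fell was 5, against 3 at q of at most 0.01, 11 at q of at most 0.1 and 12 at an unadjusted p of at most 0.05, and no member was higher under any of these. With at least a 1.5-fold difference added it was 4. Over all tested rows 10.5% were called lower in EtOH at q of at most 0.05. Their shares at the other thresholds were not counted, so the member counts there have no background to be read against. A median over genes has no replicate spread here against which to set these shifts. No paired analysis was possible because each condition has 1 deposited value per gene, and leaving out a replicate was not possible either. The depth of the libraries is unknown, so no counting error can be given for low members such as Polr1e.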

Other observations

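Several members lie within 1000 bases of a neighbouring gene. Tbcb, a tubulin folding cofactor gene 44 bases from Polr2i, had 27.2 FPKM in EtOH and 33.8 FPKM in 4OHT, a log2 change of -0.31 with a q of 0.216 in the authors' deposited table. Tspan4, a tetraspanin gene 82 bases from Polr2l, fell, at 25.2 FPKM in EtOH and 46.1 FPKM in 4OHT, with a q of 1.37e-07 in the authors' deposited table. Ptcd3, a mitochondrial translation gene 290 bases from Polr1a, had 22.3 FPKM in EtOH and 27.6 FPKM in 4OHT, a log2 change of -0.30 close to that of Polr1a, -0.32. Micall1, 115 bases from Polr2f, rose, at 8.77 FPKM in EtOH and 6.46 FPKM in 4OHT, with a q of 0.0387 in the authors' deposited table. Rnf115, a ubiquitin ligase gene 171 bases from Polr3c, had 25.6 FPKM in EtOH and 23.6 FPKM in 4OHT. These neighbours were named after their values were seen, and 22 pairs of a member and a neighbour within 1000 bases were listed in all.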
